A study of Mus musculus with 18 samples.

Results

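Complement is a cascade of plasma and tissue proteins, and the transcripts of 9 of its components were followed in B16F10 melanomas: C1qa, C1qb, C1qc, C1ra, C1s1, C4b, C2, C3 and Cfb. These 9 genes were taken by name from the 41079 genes of the expression table, as members of the classical and alternative pathways. No cut on a measured value was used, but earlier results of these data were known when they were chosen. All 9 reached a mean of 1 FPKM (fragments scaled to gene length and to the fragments of the whole library) over the tumors, the minimum that 12357 genes met for testing.

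B16F10 is a mouse melanoma cell line, grown here under the skin of C57BL/6 mice. The 18 tumors fell into 6 groups of 3, which all received intratumoral injections every 2 days from day 6, at a tumor volume of about 50 mm3, and all tumors were collected 48 h after the last injection. The PBS group received buffer. Free PS473 received PS473, a pistol ribozyme (a small self-cleaving RNA) directed against the mRNA of PD-L1, and PS473@CPs received it with cationic polymers. NKMOF-101-[Mn] received a manganese metal–organic framework without RNA, M5@NKMOF-101-[Mn] the framework with M5, a mutant ribozyme without catalytic activity, and PS473@NKMOF-101-[Mn] the framework with PS473. The sample titles of this last group write the framework as NKMOF-102-[Mn], whereas its treatment entries write NKMOF-101-[Mn], the name kept here. The tumors come from 1 cell line and from whole tissue, and each tumor is counted as 1 replicate.

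Complement proteins act in a fixed order. In the classical pathway, C1q (built of A, B and C chains) recognises antibody, dying cells or other surfaces, and its bound proteases C1r and C1s then cleave C4 and C2, whose fragments form the enzyme that cleaves C3. In the alternative pathway, factor B (Cfb) joins C3b in a second enzyme of this kind, and both routes coat targets with C3b and can start the terminal, membrane-attacking steps. Most circulating complement is made by hepatocytes, but macrophages are the main source of C1q, and fibroblasts and other tissue cells can make C1r, C1s, C4, C2, C3 and factor B, several of them under interferon or inflammatory cytokines.

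The genes lie in a few neighbourhoods of the mouse genome. C1qa, C1qc and C1qb are neighbours on chromosome 4, C1ra and C1s1 lie together on chromosome 6 beside their copies C1rb and C1s2, and C2, Cfb and C4b are in the major histocompatibility region of chromosome 17, which also carries C3 at a distance. The 250 bases upstream of the RefSeq start (build GRCm38.p6) were at hand for 5 of the 9 genes, C1qb, C1qc, C1ra, C1s1 and C3. They are shown for 2 sets of neighbours whose levels moved together across the tumors, the C1q chains and the C1 proteases, written 5′ to 3′ along the gene with the last base next to the start. For C1s1, which has more than 1 start in RefSeq, the window is that of the most upstream one. Capitals mark matches to GAGGAA (the core bound by PU.1, the myeloid transcription factor) and to TTNNGNAA (a C/EBP site), on either strand.
C1qb, chr4:136886201-136886450, minus strand: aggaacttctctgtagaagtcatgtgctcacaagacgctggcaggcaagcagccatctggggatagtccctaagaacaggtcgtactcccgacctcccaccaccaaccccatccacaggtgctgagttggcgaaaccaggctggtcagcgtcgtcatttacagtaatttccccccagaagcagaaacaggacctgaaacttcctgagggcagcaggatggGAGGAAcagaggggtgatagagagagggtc
C1qc, chr4:136892915-136893164, minus strand: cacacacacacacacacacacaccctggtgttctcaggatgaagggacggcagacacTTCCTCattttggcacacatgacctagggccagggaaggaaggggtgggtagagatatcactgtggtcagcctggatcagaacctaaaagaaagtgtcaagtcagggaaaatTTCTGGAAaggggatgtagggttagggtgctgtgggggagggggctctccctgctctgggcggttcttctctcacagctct
C1ra, chr6:124512371-124512620, plus strand: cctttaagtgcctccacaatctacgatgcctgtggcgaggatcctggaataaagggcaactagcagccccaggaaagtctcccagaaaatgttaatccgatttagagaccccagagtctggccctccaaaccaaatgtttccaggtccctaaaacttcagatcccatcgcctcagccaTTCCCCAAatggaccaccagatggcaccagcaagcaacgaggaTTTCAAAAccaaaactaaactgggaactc
C1s1, chr6:124542360-124542609, minus strand: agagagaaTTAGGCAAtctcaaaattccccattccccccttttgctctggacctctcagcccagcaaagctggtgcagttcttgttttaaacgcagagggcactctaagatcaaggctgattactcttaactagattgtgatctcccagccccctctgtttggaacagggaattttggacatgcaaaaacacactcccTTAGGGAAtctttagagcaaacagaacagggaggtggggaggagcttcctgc

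The C1qb window holds 1 match to GAGGAA, 30 bases before the start, and the C1qc window holds 1, 193 bases before it. C1ra, C1s1 and C3 hold 0 such matches, against 23.3% of 32851 windows of the same length that hold at least 1. For TTNNGNAA, found in 36.8% of all windows, C1qc has 1 match, C1ra 2, C1s1 2 and C3 3, and no match overlapped one of the other motif. The 5 windows hold no match to an interferon response element (GAAA and GAAA with 2 bases between them, in 2.98% of windows), a gamma-activated site (TTCNNNGAA, in 7.02%) or an NF-kappaB site (GGG and TTTCC with 2 bases between them, in 1.41%). These are matches of letters and not measured binding sites, and the motifs were chosen after the expression values had been seen.

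The level of all 9 transcripts was first compared over the 18 tumors. C2, the zymogen of the classical C3-cleaving enzyme, had the highest mean at 56.1 ± 15.3 FPKM (SD, n = 18). It was followed by C1qb (52.9 ± 23.5), C1qa (47.8 ± 21.3), C4b (46.2 ± 18.7) and C1qc (40.8 ± 18.3). Neighbours in this order of 5 genes differed by less than the SD of either. The C1 proteases were lower, with 10.9 ± 3.35 FPKM for C1ra and 3.66 ± 1.30 for C1s1, and factor B stood at 7.65 ± 2.64. C3, the component on which all pathways converge, had the lowest mean, 1.95 ± 1.44 FPKM, and in every tumor it lay below C4b (by 8.54-fold to 151-fold) and below C2 (by 7.42-fold to 212-fold). C3 was also the most variable: its highest tumor exceeded its lowest 23.5-fold, compared with 2.74-fold for C2 and between 3.20-fold and 7.71-fold for the others.

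**Figure D1:**
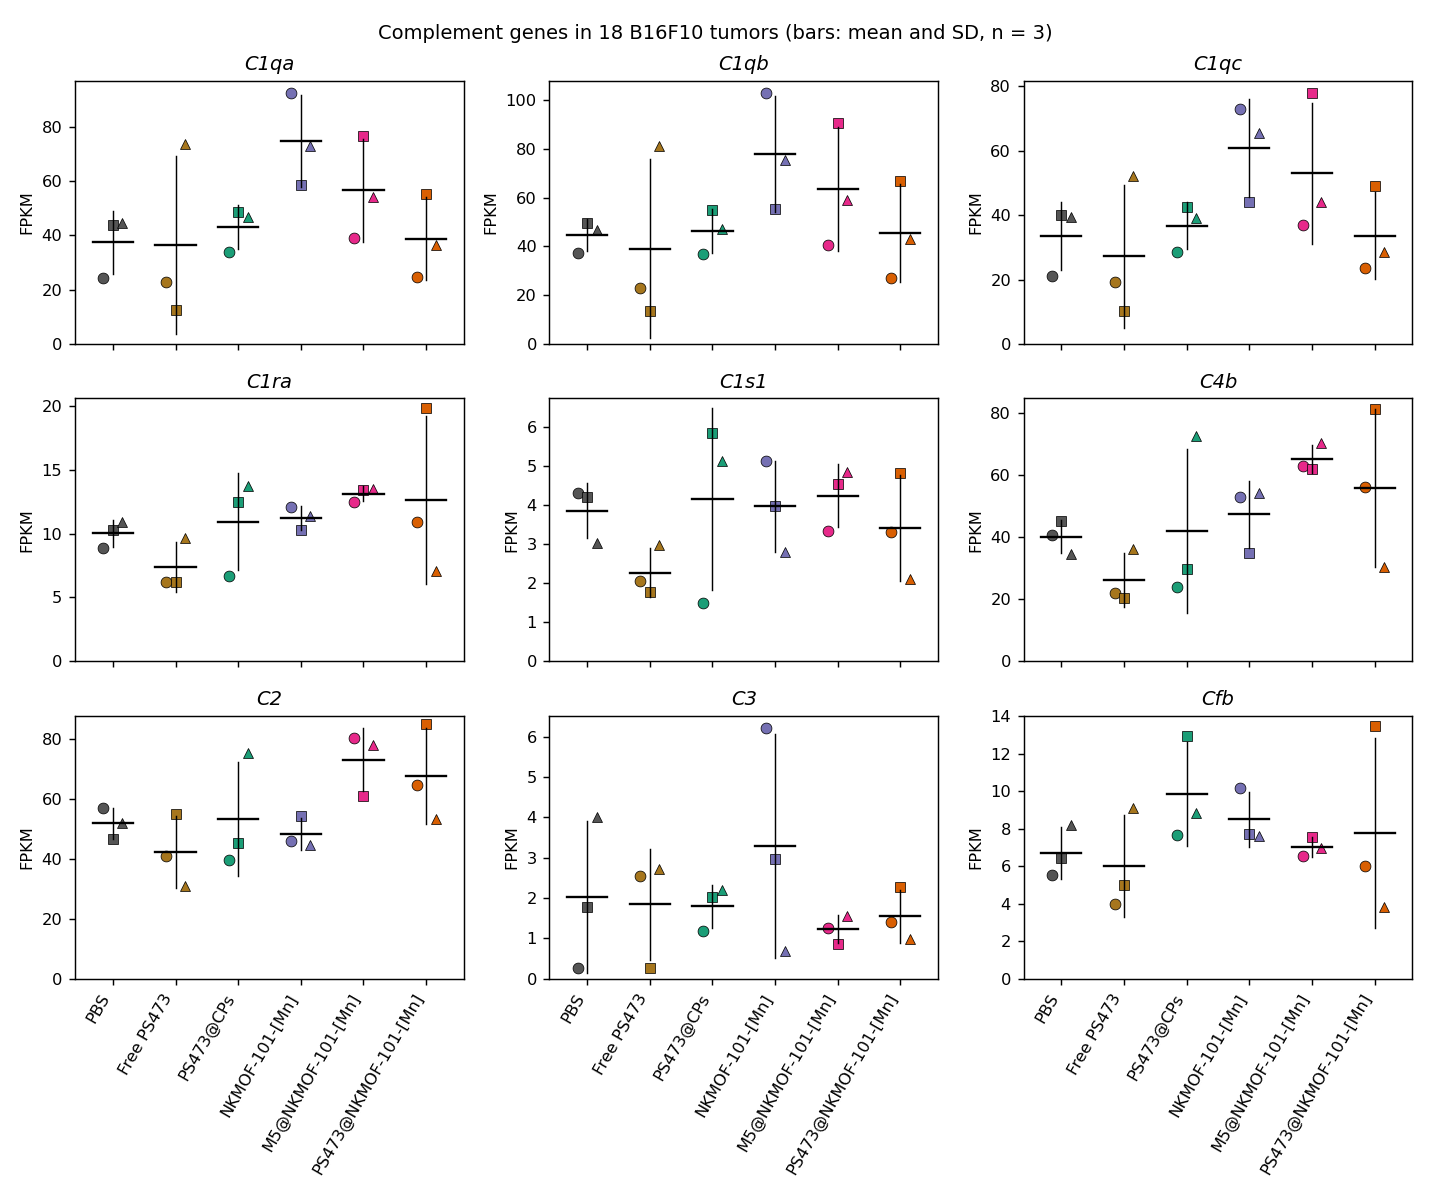
FPKM of the 9 complement genes (1 panel each, linear axes from 0) in the 6 groups. Points are tumors, with circles, squares and triangles for replicates 1, 2 and 3, horizontal bars are group means and vertical bars ± 1 SD (n = 3). Tumors of 1 group often spread as widely as the group means: Free PS473 runs from 13.5 to 81.0 FPKM for C1qb.

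The copies of these genes and the markers of liver were checked, since they bear on where the fragments belong. C4a, the close copy of C4b, was at 0.477 FPKM or less in every tumor, C1rb at 0.122 or less and C1s2 at 0.138 or less. How fragments shared by such copies were divided is not given in the sources used here, so the values of C4b, C1ra and C1s1 are uncertain to that extent. C2 and Cfb also lie next to each other, and fragments that run from one gene into the next could be counted for either. Of 9 hepatocyte genes, 6 had a mean under 0.1 FPKM and 1 reached 1 FPKM (Apoa2, 3.35 to 6.66 FPKM), and albumin (Alb) was highest at 1.82 FPKM in PS473@NKMOF-101-[Mn] tumor 1. Melanocyte genes, which check the labelled tumor, were high throughout, with a mean log2(FPKM + 1) over 8 genes between 8.19 and 8.82. Cd274, the target of PS473, was between 12.3 and 21.5 FPKM in the PBS tumors and between 9.74 and 32.9 FPKM in the PS473@NKMOF-101-[Mn] tumors, so these groups overlapped.

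The comparisons asked whether the ribozyme, its carrier or both went with a change in tumor complement transcripts. With limma fitted over all 12357 genes, 0 of the 9 genes passed an adjusted p of 0.05 with a change of more than 2-fold in any of 12 comparisons, and the background share of all genes called was 0% in each of the 12. They set each of the 5 other groups beside PS473@NKMOF-101-[Mn], the 4 other treatments beside PBS, and covered any difference among the 6 groups, the 9 framework tumors against the 9 others, and the PS473 effect with the framework minus that without it. The lowest adjusted p of any of the 9 genes was 0.842, for C2 in PS473@NKMOF-101-[Mn] against Free PS473. At an unadjusted p under 0.05 by limma, 0 of the 9 genes passed in 8 of the 12 comparisons. The share of all genes that did was 2.1%, 2.29%, 2.3% and 0.591% for PS473@NKMOF-101-[Mn] minus PBS, PS473@CPs, the empty framework and the M5 framework group. It was 1.81%, 2.09%, 1.46% and 1.51% for Free PS473, PS473@CPs, the empty framework and the M5 framework group minus PBS. Since PBS or PS473@NKMOF-101-[Mn] serves in several of these comparisons, they are not independent of each other. In the order of the 6 group means, 0 of 45 neighbouring pairs of groups were without overlap. Neighbours in that order are the closest groups by construction, and the share over all genes was not computed. The count therefore says nothing of groups further apart, some of which did not overlap. Within-group spread made up 47.0% of the total spread on the log2 scale for C2, the lowest share of the 9 genes, and 87.8% for C3, the highest.

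The C1q chains, which recognise the target and start the classical pathway, had their highest mean in NKMOF-101-[Mn]. In PBS tumors 1 to 3, C1qa was at 24.2, 43.7 and 44.4 FPKM, C1qb at 37.3, 49.7 and 46.7 and C1qc at 21.2, 40.0 and 39.4. In NKMOF-101-[Mn] tumors 1 to 3, C1qa was at 92.4, 58.7 and 73.0 FPKM, C1qb at 103, 55.4 and 75.4 and C1qc at 72.9, 43.9 and 65.7. The 2 groups did not overlap for any of the 3 chains, a pattern that 4.52% of all genes tested showed in this direction. On the log2(FPKM + 1) scale, on which all fold changes are given, the difference was 1.01 for C1qa (SE 0.49, 95% interval -0.04 to 2.05), 0.76 for C1qb (SE 0.50) and 0.86 for C1qc (SE 0.47). All 3 had an adjusted p of 1.00 by limma over 12357 genes, and the 95% intervals of the 3 chains all include 0.

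The 3 chains had lower means with an RNA in the framework. M5@NKMOF-101-[Mn] held 39.1, 76.6 and 53.98 FPKM of C1qa, and PS473@NKMOF-101-[Mn] held 24.6, 55.2 and 36.6. All PS473@NKMOF-101-[Mn] tumors were below all NKMOF-101-[Mn] tumors for C1qa, as were 5.5% of all genes in this comparison, with a difference of -0.98 (SE 0.49, 95% interval -2.02 to 0.06, adjusted p 0.999 by limma). The ranges of C1qb and C1qc overlapped there. Free PS473 tumors differed most among themselves, with C1qa at 23.0, 12.4 and 73.7 FPKM. The lowest C1qa, C1qb and C1qc values of the series were all in Free PS473 tumor 2.

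The chains kept close proportions while their level varied more than 7-fold. C1qb over C1qa ran from 0.944 to 1.54 (median 1.10) and was above 1 in 16 of 18 tumors, and C1qc over C1qa ran from 0.708 to 1.02 (median 0.862). Their pairwise correlations over the 18 tumors were the 3 highest of 36 pairs among the 9 genes: r = 0.98 for C1qa and C1qb, r = 0.98 for C1qa and C1qc and r = 0.97 for C1qb and C1qc, with Spearman's rho of 0.98 in each case. Each had a permutation p of 1e-05, the smallest that 100000 permutations can give, and an adjusted p of 9e-05. Leaving out the 2 most distant tumors gave r of 0.96, 0.97 and 0.94, and differences from the group means gave 0.98, 0.98 and 0.96.

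The C1 proteases followed another order of groups. C1ra was at 8.86, 10.3 and 10.9 FPKM in PBS, 12.5, 13.4 and 13.5 in M5@NKMOF-101-[Mn] and 10.9, 19.9 and 7.08 in PS473@NKMOF-101-[Mn]. C1s1 was at 4.32, 4.21 and 3.04 FPKM in PBS and at 2.05, 1.79 and 2.97 in Free PS473. C1s1 was thus lower in every Free PS473 tumor than in any PBS tumor, as were 1.54% of all genes, with a difference of -0.58 (SE 0.33, 95% interval -1.28 to 0.12, adjusted p 1.00 by limma). C1ra exceeded C1s1 in all 18 tumors, by 2.05-fold to 4.43-fold, and the 2 genes correlated at r = 0.82 (rho = 0.78, permutation p 4e-05, adjusted p 0.000288, r = 0.73 without the 2 most distant tumors).

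C4b, the substrate of C1s that anchors the pathway to a surface, varied with C1ra. It was at 40.7, 45.2 and 34.7 FPKM in PBS, 22.1, 20.5 and 36.4 in Free PS473 and 23.9, 29.9 and 72.5 in PS473@CPs. With the framework it was at 53.1, 34.9 and 54.2 FPKM in NKMOF-101-[Mn], 63.0, 62.2 and 70.5 in M5@NKMOF-101-[Mn] and 56.1, 81.5 and 30.3 in PS473@NKMOF-101-[Mn]. The M5@NKMOF-101-[Mn] tumors were all above the PBS tumors, and the other 2 framework groups overlapped PBS. C1ra and C4b correlated at r = 0.88 (rho = 0.85, permutation p 1e-05, adjusted p 9e-05, r = 0.82 without the 2 most distant tumors).

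C2, which C1s cleaves next, was the least variable of the 9. It was at 57.0, 46.5 and 52.0 FPKM in PBS, 40.9, 55.0 and 31.0 in Free PS473 and 39.7, 45.2 and 75.2 in PS473@CPs. In the framework groups it was at 46.1, 54.4 and 44.6 FPKM for NKMOF-101-[Mn], 80.4, 61.0 and 78.0 for M5@NKMOF-101-[Mn] and 64.6, 85.1 and 53.5 for PS473@NKMOF-101-[Mn]. Both groups with an RNA in the framework thus had higher means (73.1 ± 10.5 and 67.7 ± 16.0) than the empty framework (48.4 ± 5.29), the reverse of the C1q chains. Of these groups, only the M5 tumors were clear of PBS without overlap. C1ra, C2 and C4b were the 3 of 9 genes without overlap in M5@NKMOF-101-[Mn] against PBS, where 4.75% of all genes were higher in this way, with differences of 0.36 (SE 0.29), 0.48 (SE 0.24) and 0.69 (SE 0.38) and an adjusted p of 0.999 by limma for each.

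C1ra, C2 and C4b also had the largest differences between PS473@NKMOF-101-[Mn] and Free PS473. The difference was 1.00 for C4b (95% interval 0.19 to 1.81), 0.68 for C2 (0.17 to 1.19) and 0.62 for C1ra (0.00 to 1.23). Their unadjusted p values by limma were 0.0193, 0.0128 and 0.0490, in a comparison in which 4.98% of all genes were under 0.05 unadjusted, and their adjusted p values were 0.931, 0.842 and 0.960. The tumors of the 2 groups overlapped for all 3 genes.

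The remaining pairs are given by their range over the 9 genes. PS473@NKMOF-101-[Mn] minus PBS ran from -0.17 for C1s1 to 0.37 for C4b (95% interval -0.44 to 1.18), and minus PS473@CPs from -0.43 for Cfb to 0.46 for C4b. Against the M5 control it ran from -0.63 for C1qc (95% interval -1.64 to 0.37) to 0.17 for C3, with 8 of 9 genes below 0. PS473@CPs minus PBS ran from -0.09 for C4b to 0.48 for Cfb. Free PS473 minus PBS was below 0 for all 9 genes, down to -0.63 for C4b (SE 0.38, 95% interval -1.44 to 0.18), with a median of -0.42, while 59.5% of all genes were above 0. The intervals of these comparisons still allow a change of 2-fold in 1 direction or the other for some of the genes named, so similar levels were not shown.

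C3 and factor B, which together form the enzyme of the alternative pathway, showed no ordering by treatment. C3 was at 0.269, 1.77 and 4.01 FPKM in PBS, 2.53, 0.264 and 2.73 in Free PS473 and 1.18, 2.01 and 2.19 in PS473@CPs. It was at 6.21, 2.96 and 0.686 FPKM in NKMOF-101-[Mn], 1.27, 0.867 and 1.55 in M5@NKMOF-101-[Mn] and 1.39, 2.27 and 0.985 in PS473@NKMOF-101-[Mn]. The 6 groups all overlapped with their neighbours in the order of means, which are the closest groups by construction. The spread was wider than counting error: the lowest C3 value, in Free PS473 tumor 2, rested on 36 fragments (exact Poisson 95% interval 0.185 to 0.365 FPKM), and the highest, in NKMOF-101-[Mn] tumor 1, on 683 (5.76 to 6.70 FPKM), intervals that cover counting error only. Cfb ranged from 3.84 to 13.5 FPKM, and both ends were in PS473@NKMOF-101-[Mn] (13.5 in tumor 2 and 3.84 in tumor 3). C2 exceeded Cfb, its neighbour and counterpart in the other pathway, by 3.39-fold to 13.9-fold, and the 2 genes did not covary (r = 0.07, rho = -0.08, permutation p 0.774 and 0.767, adjusted p 0.819 and 0.850).

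Taking the groups by carrier, the difference between the 9 framework tumors and the 9 others was above 0 for 9 of the 9 genes, with a median of 0.36, against a median of -0.01 and 47.6% above 0 for all genes tested. C4b was at 0.66 (SE 0.22, 95% interval 0.20 to 1.13), C1qc at 0.62 (0.04 to 1.2), C1qa at 0.58 (-0.02 to 1.18) and C1qb at 0.55 (-0.06 to 1.17). C2 was at 0.36 (0.06 to 0.65), C1ra at 0.36 (0.00 to 0.71) and C1s1 at 0.19 (-0.22 to 0.59), whereas C3 and Cfb were both at 0.04. Unadjusted p values by limma were under 0.05 for 4 of the 9 genes (C4b 0.00860, C2 0.0209, C1qc 0.0379 and C1ra 0.0496), against 4.56% of all genes, and the adjusted p was 0.900 for each of them. That count was 2 when PBS tumor 1, Free PS473 tumor 1 or 2, PS473@CPs tumor 1, NKMOF-101-[Mn] tumor 1 or 3, M5@NKMOF-101-[Mn] tumor 2 or PS473@NKMOF-101-[Mn] tumor 2 was left out, and the number above 0 was then 7 to 9. None of the 9 genes separated the 2 sets of tumors without overlap, as was so for all genes tested (0 of 12357 in either direction). The Free PS473 tumors, low for most of these genes, are among the 9 others: without that group, an alternative added after seeing the data, 8 of 9 genes were above 0 with a median of 0.25 (54.4% of all genes), C4b was at 0.47 and Cfb at -0.10. The number under 0.05 unadjusted was then 0, against 2.71% of 12377 genes. PS473@NKMOF-101-[Mn] minus PBS alone had 5 of 9 genes above 0 and a median of 0.03.

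**Figure D2:**
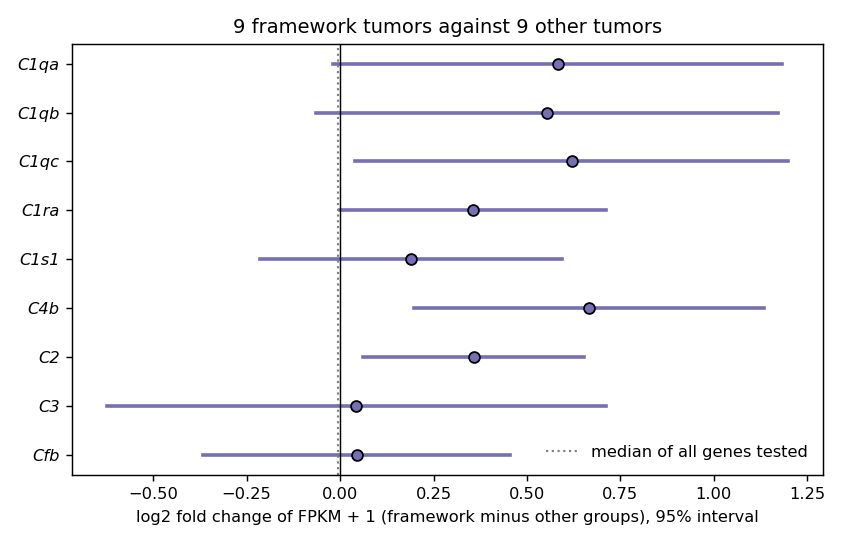
Difference in log2(FPKM + 1) between the 9 framework tumors and the 9 other tumors for each complement gene, as the limma estimate (point) with its 95% interval (line), the dotted line marking the median of all genes tested (-0.01). All 9 points lie right of 0, from 0.04 for C3 and Cfb to 0.66 for C4b, and the intervals of C4b, C2, C1qc and C1ra stay above 0.

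Markers of other cells and of responses were set beside this contrast, with 0 genes of any list called. In bulk tissue, fewer cells of a type and less RNA per cell cannot be told apart. The macrophage score (mean log2(FPKM + 1) of 14 marker genes without the complement genes) was 2.47 ± 0.46 in the framework tumors (SD, n = 9, 1.91 to 3.39) and 2.23 ± 0.52 in the others (1.38 to 3.16), and 9 of its 11 tested genes were above 0. The interferon response score (33 genes) was 4.08 ± 0.51 (3.49 to 5.23) against 3.54 ± 0.60 (2.57 to 4.54), with all 33 genes above 0. The melanocyte score (8 genes) was 8.64 ± 0.16 against 8.47 ± 0.21, with all 8 genes above 0 (median 0.16). Some other lists lay the other way: 1 of 12 tested fibroblast genes was above 0 (median -0.24), 0 of 6 inflammatory response genes (-0.33), 1 of 7 endothelial genes (-0.26) and 1 of 9 skin epithelium genes (-1.04). The skin epithelium score, over 11 keratinocyte genes, ranged from 0.131 to 6.26, so keratinocyte transcripts were present to very different degrees, with 10 of its 11 genes (Krt5 and Krt14 among them) listed at 0 in at least 1 tumor. With that score as a covariate, C4b was at 0.72, C1qc at 0.74 and C2 at 0.35, 9 of 9 genes were above 0 and 0 passed the adjusted threshold (6 were under 0.05 unadjusted, in a fit where 6.37% of all genes were). The part of these marker scores in the carrier difference was not tested.

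C2 was the only 1 of the 9 with an unadjusted p under 0.05 in 2 further comparisons. Over all 6 groups its F test in limma gave an unadjusted p of 0.0414, where 1.99% of all genes were under 0.05, and an adjusted p of 1.00. The PS473 effect within the framework minus that without it was 0.78 for C2 (SE 0.34, 95% interval 0.05 to 1.5, unadjusted p 0.0373, adjusted p 1.00 by limma), where 2.68% of all genes were under 0.05. The same value for C1qa was -0.62 (95% interval -2.09 to 0.86).

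The tumors were then compared one by one with scores of cell types and responses, since the spread within groups was large. Of 54 correlations between the 9 genes and 6 scores, 31 passed an adjusted p of 0.05 by permutation and all 31 were positive (30 by Spearman's rho, 26 by both). Without Free PS473 tumor 2, which had the lowest C1q level and the lowest macrophage score, 13 passed, without Free PS473 tumor 1 19 and without NKMOF-101-[Mn] tumor 1 18. All values of a tumor come from 1 library, so scores and genes share its depth and composition.

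**Figure D3:**
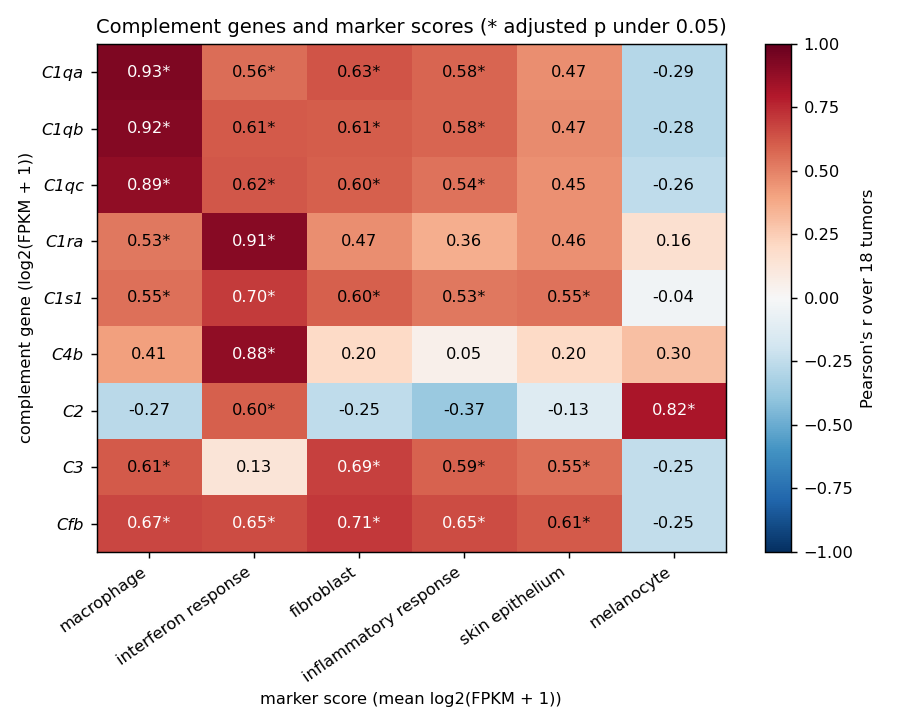
Pearson's r over 18 tumors between log2(FPKM + 1) of each complement gene (rows) and the mean log2(FPKM + 1) of 6 marker lists (columns), with red for positive and blue for negative r and an asterisk for an adjusted p under 0.05 by permutation. The C1q rows peak in the macrophage column (0.89 to 0.93), C1ra and C4b in the interferon column (0.91 and 0.88), C2 in the melanocyte column (0.82) and C3 and Cfb in the fibroblast column (0.69 and 0.71).

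C1q correlated most with the macrophage score. The r was 0.93 for C1qa, 0.92 for C1qb and 0.89 for C1qc (rho = 0.94, 0.93 and 0.92, each with permutation p 1e-05 and adjusted p 9e-05 for r). Without the 2 most distant tumors, Free PS473 tumor 2 and NKMOF-101-[Mn] tumor 1, r was 0.90, 0.87 and 0.83, and for differences from the group means it was 0.95, 0.95 and 0.93. The 3 chains also passed, at lower r, with the interferon response (0.56 to 0.62), fibroblast (0.60 to 0.63) and inflammatory response (0.54 to 0.58) scores. Their adjusted p by permutation there lay between 0.0213 and 0.0394. The most abundant macrophage markers of the list were Lyz2 (mean 68.4 FPKM), Cd68 (25.9), Csf1r (6.54) and Ms4a7 (6.23). Of all 12348 other genes tested, the 3 most like C1qa were Laptm5 (r = 0.97, a lysosomal membrane protein of leukocytes), Ctss (0.95, cathepsin S) and Fermt3 (0.95, the integrin activator of blood cells). For C1qb they were Fcer1g (0.96), Trem2 (0.96) and Laptm5 (0.96), and for C1qc Laptm5 (0.97), Fermt3 (0.96) and Spi1 (0.96), the gene of the PU.1 factor whose core motif is marked in the windows of C1qb and C1qc. That motif occurs in 23.3% of all windows, and an action of PU.1 on these genes was not tested.

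The C1 proteases and C4b followed the interferon response score. C1ra had r = 0.91 (rho = 0.94), C4b r = 0.88 (rho = 0.92), both with permutation p 1e-05 and adjusted p 9e-05, and C1s1 r = 0.70 (rho = 0.69, permutation p 0.00089, adjusted p 0.00687). Leaving out Free PS473 tumor 2 and PS473@NKMOF-101-[Mn] tumor 2, the ends of that score, gave 0.85, 0.86 and 0.66. The genes most like C1ra were Tap2 (r = 0.97, peptide transport for MHC class I), Gbp4 (0.96, a guanylate-binding protein) and Erap1 (0.96, a peptide-trimming protease). Among those most like C4b were Gm19412 (0.93) and Parp14 (0.93). C1s1 was most like Serping1 (0.86), the gene of the C1 inhibitor that blocks C1r and C1s, Itm2b (0.86) and Gm53999 (0.86). C4b did not pass with the macrophage score (r = 0.41, permutation p 0.0910, adjusted p 0.133). C1ra (r = 0.53, adjusted p 0.0426 by permutation) and C1s1 (0.55, 0.0372) did by r, but not by rho (adjusted p 0.0853 and 0.068). C1s1 passed as well with the fibroblast (r = 0.60, adjusted p 0.0245), skin epithelium (0.55, 0.0391) and inflammatory response (0.53, 0.0434) scores.

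C2 stood apart from the C1q chains. Its r with them lay between -0.08 and -0.01, and with the macrophage score it was -0.27 (permutation p 0.273, adjusted p 0.343). It correlated instead with the melanocyte score (r = 0.82, rho = 0.76, permutation p 1e-05, adjusted p 9e-05), at r = 0.77 without the 2 most distant tumors and 0.72 for differences from the group means. That score spans only 8.19 to 8.82, and its most abundant genes were Dct (mean 2686 FPKM), Pmel (1356), Tyrp1 (1115) and Mlana (706.1), enzymes and melanosome proteins of the pigment cell. C2 also correlated with the interferon score (r = 0.60, rho = 0.62, permutation p 0.00834, adjusted p 0.0225), but r was 0.33 for differences from the group means (adjusted p 0.227), 0.56 without Free PS473 tumor 1 (adjusted p 0.0504) and 0.48 without PS473@NKMOF-101-[Mn] tumor 2 (adjusted p 0.085). The genes most like C2 were Lratd2 (r = 0.92), Enc1 (0.91) and Dkk3 (0.91, a secreted protein of the Dickkopf family).

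**Figure D4:**
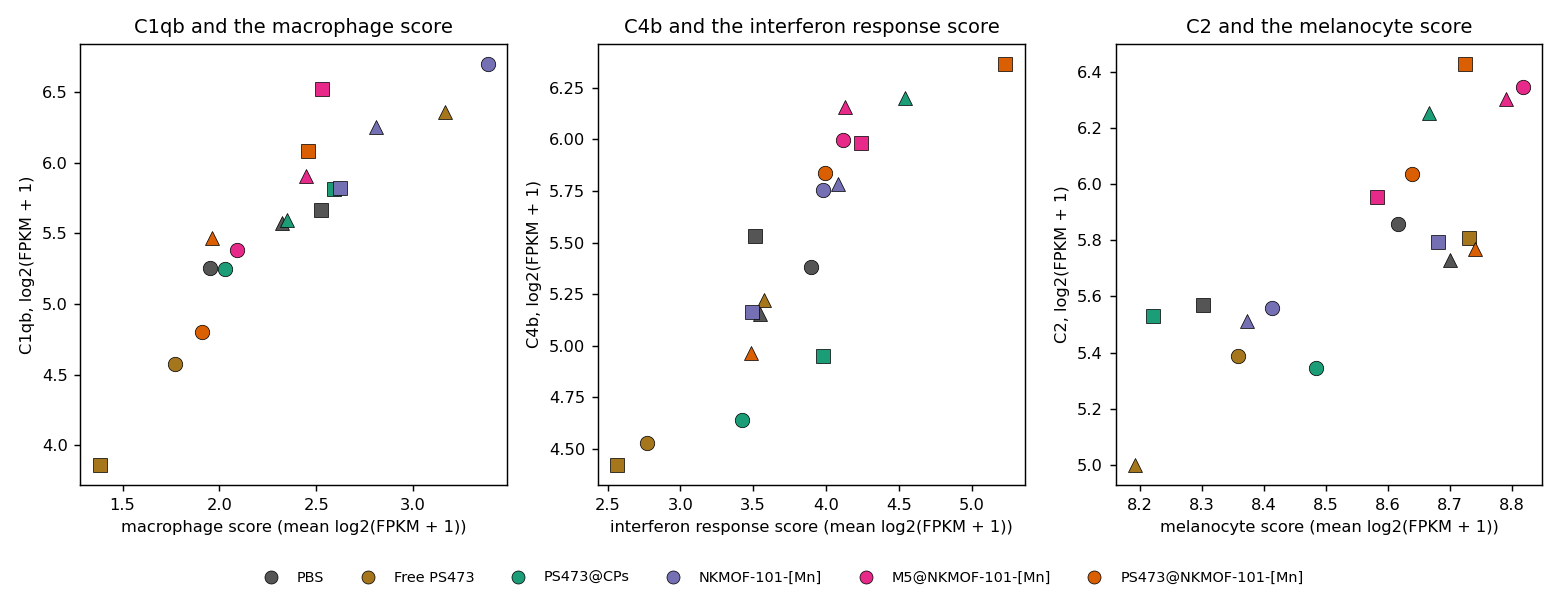
Log2(FPKM + 1) of C1qb, C4b and C2 against the macrophage, interferon response and melanocyte scores (mean log2(FPKM + 1)) in 18 tumors, colored by group, with circles, squares and triangles for replicates 1, 2 and 3. Points rise from lower left to upper right in each panel (r = 0.92, 0.88 and 0.82), and tumors of 1 group, such as the 3 Free PS473 tumors, lie far apart along the line.

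C3 and factor B correlated best with the fibroblast score. For C3, r was 0.69 (rho = 0.65, permutation p 0.00159, adjusted p 0.00954) and 0.83 without PBS tumor 2 and PS473@CPs tumor 2, and for Cfb it was 0.71 (rho = 0.75, permutation p 0.00103, adjusted p 0.00695) and 0.77 without them. C3 also passed with the macrophage score (r = 0.61, adjusted p 0.0225 by permutation), but that relation rested on 2 tumors, as r was 0.27 without Free PS473 tumor 2 and NKMOF-101-[Mn] tumor 1. Cfb correlated in addition with the inflammatory response score (r = 0.65, rho = 0.73, permutation p 0.00334, adjusted p 0.0159). It also passed by permutation with the macrophage (r = 0.67, adjusted p 0.0136), interferon response (0.65, 0.0159) and skin epithelium (0.61, 0.0225) scores. The interferon relation did not pass by rho (0.46, adjusted p 0.0856). For differences from the group means, r of Cfb was 0.75 with the interferon, 0.72 with the macrophage and 0.71 with the fibroblast score. The list of fibroblast genes was led by Col1a1 (mean 91.1 FPKM), Col1a2 (52.9), Fbln1 (47.8) and Col3a1 (47.5), and that of the inflammatory response by Nfkbia (17.9) and Saa3 (5.57). The genes most like C3 were Thbs4 (r = 0.89, a matrix protein), Uap1 (0.87) and Gas6 (0.83, a ligand of TAM receptors), and those most like Cfb were Acsl5 (0.90), Cxcl10 (0.89, an interferon-induced chemokine) and H2-Q5 (0.88).

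Among the 9 genes themselves, 23 of 36 pairs correlated at an adjusted p under 0.05 by permutation, all positively (18 by Spearman's rho, 17 by both), and 14 did without Free PS473 tumor 2. C2 joined C4b (r = 0.67, adjusted p 0.00912 by permutation, and r = 0.43 with adjusted p 0.10 for differences from the group means). It also joined C1ra (r = 0.58, adjusted p 0.021 by permutation, and r = 0.37 for differences from the group means). Cfb joined C1ra as well (r = 0.74, rho = 0.59, permutation p 0.00055, adjusted p 0.00330). By permutation Cfb passed too with C1s1 (r = 0.62, adjusted p 0.0139) and the 3 C1q chains (r = 0.63 to 0.64, adjusted p 0.0124 each).

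The rest of the complement system was transcribed in part. Of 45 other complement genes, 15 reached a mean of 1 FPKM, and 0 of the 15 were called in any comparison. Of the lectin pathway and close copies, Masp2, the protease that can replace C1s, had a mean of 2.35 FPKM and C1rl, a C1r-like protease, 3.88, while Mbl2 was listed at 0 in all 18 tumors. Properdin (Cfp), which stabilises the alternative enzyme, was at 9.19 FPKM, and factor D (Cfd), the protease that activates factor B, at 4.02 with a range from 0 to 23.0. The terminal pathway was close to undetected, since 6 of 7 genes (C5, under its mouse name Hc, and C6, C7, C8a, C8b and C9) had a mean under 0.1 FPKM, the exception being C8g at 3.58.

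Receptors and regulators were better represented. Complement receptor genes with the highest means were Itgb2 (9.46 FPKM) and Itgam (6.05), the chains of CR3, Cd93 (5.12) and C3ar1 (3.45), the receptor of C3a. Between the framework tumors and the others, 5 of 6 tested receptor genes were above 0, with 0.52 for Itgb2 (SE 0.21, unadjusted p 0.0288, adjusted p 0.900 by limma) and 0.62 for Itgam (SE 0.30), and the median of the 6 was 0.41. Of the regulators, Cr1l (Crry, which limits C3 cleavage on mouse cells) had a mean of 17.3 FPKM, Serping1 12.3, Clu 3.50 and Cd59a 3.03, and 1 of these 4 was above 0 (Serping1, 0.24, SE 0.36). Factor I (Cfi), a protease that inactivates C3b and C4b, was at 0.138 FPKM and was not tested.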

How the data were processed

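Poly(A)-enriched RNA of 18 tumors was sequenced by the authors, and the deposited values are FPKM per gene, with build GRCm39 in the submitters' processing notes; the aligner, counter and annotation are not given in the sources used here. Steps between low values put the fragments assigned per tumor at 17212000 to 28401000. Between 47.3% and 51.4% of low values were whole fragments (within 0.01), so no count model was used.

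FPKM was transformed to log2(FPKM + 1). The 12357 genes whose mean reached 1 FPKM entered a limma 3.58.1 fit in R 4.3.3 (6 group means, 18 tumors, trended prior, no replicate block), and p values were adjusted by Benjamini-Hochberg over all genes. To be called, a gene needed adjusted p < 0.05 and a log2 change beyond 1 in either direction. On simulated data for PS473@NKMOF-101-[Mn] vs PBS with 12357 genes, 92% of 200 changes of log2 2 were recovered. The simulated noise was independent between genes, and changes smaller than log2 1.5 were not simulated, so recovery of such changes is not known. The 200 changes were placed together, which eases the adjustment over all genes. Recovery of a change in only a few genes is therefore not known either. Correlations used log2(FPKM + 1), 100000 permutations (two-sided) and adjustment over 54 or 36 relations, with Python 3.11.15, numpy 2.4.6, pandas 2.3.3 and scipy 1.17.1. Named genes were the 9 components, up to 4 of each list by mean FPKM and the 3 most similar genes; Mbl2, the terminal genes, Cfi and the copies were added after their values were seen. Members and lists were chosen with earlier results of these data known. The labels name no batches, and an effect of batch was not tested. The p values of the fits set group differences against the spread between tumors of the same group. Some genes that this rule names are not reported here. Promoter windows come from RefSeq.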

Additional observations from a re-analysis of the deposited data

How the results depend on the processing

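With the replicate number as a replicate block, 0 of the 9 genes were called in each of the 12 comparisons, as without it, and the carrier difference had 9 of 9 genes above 0 and 4 under 0.05 unadjusted. Same-numbered tumors did not deviate together throughout, as 18 of 45 such pairs correlated above 0.1 (-0.73 to 0.72). Tumors numbered 1 did correlate positively with each other (0.15 to 0.66) in every group except NKMOF-101-[Mn]. Its tumor 1 was negative with all of them (-0.73 to -0.43). Whether the numbers mark a shared factor was not tested. The count of genes called was 0 under every alternative run with the adjusted p. With an unadjusted p (and, for differences between groups, the fold threshold) it was 1 for any difference among the 6 groups. Leaving out 1 tumor at a time gave 7 to 9 genes above 0 and 2 to 6 under 0.05 unadjusted in the carrier difference, 13 to 35 correlations with scores and 14 to 25 pairs. Without the Free PS473 group, added after seeing the data, 0 were under 0.05 unadjusted there and Cfb was at -0.097. In that contrast C3 ran from -0.13 to 0.23 and Cfb from -0.10 to 0.16. PS473@NKMOF-101-[Mn] against PBS ran from -0.39 to 0.059 for C1s1, the same group minus the M5 control from -0.020 to 0.34 for C3, and PS473@CPs against PBS from -0.56 to 0.22 for C4b. The correlation of C2 with Cfb was -0.075 by Spearman's rho and ran from -0.15 to 0.19 when 1 tumor was left out. Counting depth limits C3 most, at 29 to 683 fragments. Tests with 3 tumors a group leave 95% intervals of about a 2-fold change either way for C1q.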

Other observations

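Cfd, which adipocytes secrete as adipsin, was highest in Free PS473 tumor 3 (23.0 FPKM). The fat genes Plin1 (0.991 FPKM), Cidec (1.69 FPKM) and Lep (0.356 FPKM) also had their highest values there. Adipoq, the remaining gene of that list, was instead highest in NKMOF-101-[Mn] tumor 1 (2.57 FPKM). The mean log2(FPKM + 1) of the list was 1.09 in that tumor and 1.08 in Free PS473 tumor 3. The relation of Cfd to these genes was not tested.

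PS473@NKMOF-101-[Mn] tumor 1 held the highest values of several liver transcripts, with Alb at 1.82 FPKM, Fgb at 0.595 FPKM and Fgg at 0.389 FPKM. Fgg was listed at 0 in the 17 other tumors, Fgb in 15 and Alb in 7. C3, which liver makes abundantly, was at 1.39 FPKM in that tumor.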
